A study of Arabidopsis thaliana with 12 samples.

Results

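Salicylic acid synthesis and response genes were examined as a set of 10 named Arabidopsis thaliana loci, chosen by gene identity with earlier results of these data known. The counts of all 6 groups were in view when the set was drawn up, so the p-values below give its place in the fit of all genes and are no independent support. The set comprised ICS1 (AT1G74710), ICS2 (AT1G18870), EDS5 (AT4G39030), PBS3 (AT5G13320) and EPS1 (AT5G67160) for synthesis and export. For signalling and response it comprised NPR1 (AT1G64280), EDS1 (AT3G48090), PR1 (AT2G14610), PR2 (AT3G57260) and PR5 (AT1G75040). Counts in all 12 libraries were given for 4 of the 10, ICS1, EDS5, EPS1 and NPR1, out of 17751 genes with such counts. The other 6 genes had a row in 0 of the 9 deposited tables and are not analysed here. Every row of those tables had at least 1 CPM (counts scaled to a common library size) in at least 2 of its 4 libraries, so the 4 genes described are those that passed a filter on low values.

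The series measured polyadenylated RNA of germinating seeds, with the stated subject of AGO4 in germination under salinity. AGO4 is an Argonaute protein that directs DNA methylation to loci matched by small RNAs. The 6 groups of 2 libraries were ago4-3 on 100 mM NaCl, ago4-3 on control medium, ago4-2 on NaCl, ago4-2 on control medium, wild-type Col-0 on NaCl and Col-0 on control medium. All seeds were sown on MS 1X medium at 21 °C, and the salt was added to that medium. The labels enter the allele names under ecotype and do not say in which accession either allele lies, so an effect of an allele and of a different genetic background cannot be told apart in any comparison with Col-0 or between the mutants. They give neither the kind of lesion, the number of seed lots behind a library nor the time of harvest.

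Salicylic acid is a plant defence hormone, and in Arabidopsis most of the pathogen-induced pool is made from chorismate in plastids. Isochorismate synthase, encoded by ICS1 and its paralogue ICS2, makes isochorismate, which is also a precursor of phylloquinone. EDS5, a transporter of the MATE family in the plastid envelope, exports the product to the cytosol. There PBS3 conjugates isochorismate to glutamate and EPS1, a protein of the BAHD acyltransferase family, speeds the breakdown of the conjugate to salicylic acid. NPR1 is a salicylic acid receptor and transcriptional coactivator that works with TGA transcription factors to switch on PR genes, and EDS1 acts upstream with PAD4 in immune signalling.

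The 4 measured genes lie on 3 chromosomes in the TAIR10.1 annotation. ICS1 is at chr1:28070295-28074177 on the plus strand with 2180 bases of exon. EDS5 is at chr4:18185437-18189224 on the plus strand with 2261 exonic bases. EPS1 is at chr5:26797596-26799265 on the minus strand with 1670 exonic bases, and NPR1 is at chr1:23852748-23855658 on the minus strand with 2614 exonic bases. Counts are per annotated gene and do not separate isoforms. Whether they cover exons only was not checked, and values per kb below divide by these exonic bases.

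The 250 bases upstream of the annotated starts of ICS1 and EDS5, read from the TAIR10.1 genome of RefSeq, are shown because the first gene differed between the lines and the second, the next step of the same route, was not called in any comparison. Capitals mark the motifs searched for on both strands. These were TTGAC, the core of the W-box bound by WRKY factors, TGACG, the core bound by TGA factors, and GAAATTT, bound by the ICS1 regulators CBP60g and SARD1. The first and the second overlap wherever TTGACG occurs.
ICS1 upstream region, plus strand, chr1:28070045-28070294: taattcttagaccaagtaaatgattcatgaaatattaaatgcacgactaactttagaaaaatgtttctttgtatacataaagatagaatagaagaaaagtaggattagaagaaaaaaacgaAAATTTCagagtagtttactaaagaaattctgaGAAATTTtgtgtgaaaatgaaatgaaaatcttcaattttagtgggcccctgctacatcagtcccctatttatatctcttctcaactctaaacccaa
EDS5 upstream region, plus strand, chr4:18185187-18185436: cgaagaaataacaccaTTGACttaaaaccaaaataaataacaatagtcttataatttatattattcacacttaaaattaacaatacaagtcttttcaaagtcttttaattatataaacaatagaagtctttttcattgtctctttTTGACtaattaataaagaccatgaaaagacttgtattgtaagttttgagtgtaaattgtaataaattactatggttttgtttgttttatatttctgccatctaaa
The ICS1 window held 2 copies of GAAATTT, beginning 129 and 96 bases before the start. The copy farther from the start reads on the minus strand. It held no TTGAC and no TGACG. The EDS5 window held 2 copies of TTGAC, beginning 234 and 105 bases before the start, and neither of the other motifs. EPS1 had 1 TTGAC, 116 bases before its start, and the NPR1 window had none of the 3 motifs. Of 27443 gene upstream windows of this length, 12.5% held GAAATTT, 44.9% held TTGAC and 18.6% held TGACG, on either strand. These matches are a description of the letters only.

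Depth ran between 18168653 counts in ago4-2 control replicate 1 and 47517007 counts in Col-0 control replicate 1. AGO4 itself was at 0.549 to 0.729 CPM in ago4-3 on NaCl and 1.15 to 1.35 CPM in ago4-3 control, against 38.9 to 46.9 CPM in Col-0 on NaCl and 44.6 to 46.8 CPM in Col-0 control. In ago4-2 it was at 35.4 to 38.9 CPM on NaCl and 40.4 to 49.1 CPM in control. The seed label was checked with 10 storage and late embryo genes, all measured, whose summed level in a library was 220 CPM at its lowest. The share of counts on organelle genes was 2.04% in ago4-2 control replicate 1 and 0.202% in ago4-2 control replicate 2. Fewer cells expressing a gene and less RNA per cell cannot be told apart in these bulk libraries. The series' design speaks of a biological replicate per run without saying how seeds were separated, so p-values measure the spread between these libraries, which may be technical.

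ICS1 was the 1 gene of the 4 that was called between the lines. In ago4-3 it was at 26.5 and 26.0 CPM on NaCl and at 28.5 and 30.7 CPM on control medium. In ago4-2 it was at 3.33 and 2.87 CPM on NaCl and at 3.75 and 5.70 CPM on control medium. In Col-0 it was at 6.27 and 4.96 CPM on NaCl and at 7.52 and 7.58 CPM on control medium. All 4 ago4-3 libraries lay above all 8 others, and within each medium both ago4-2 libraries lay below both Col-0 libraries. The raw counts behind these levels were 545 to 803 in ago4-3, 58 to 168 in ago4-2 and 172 to 392 in Col-0.

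**Figure D1:**
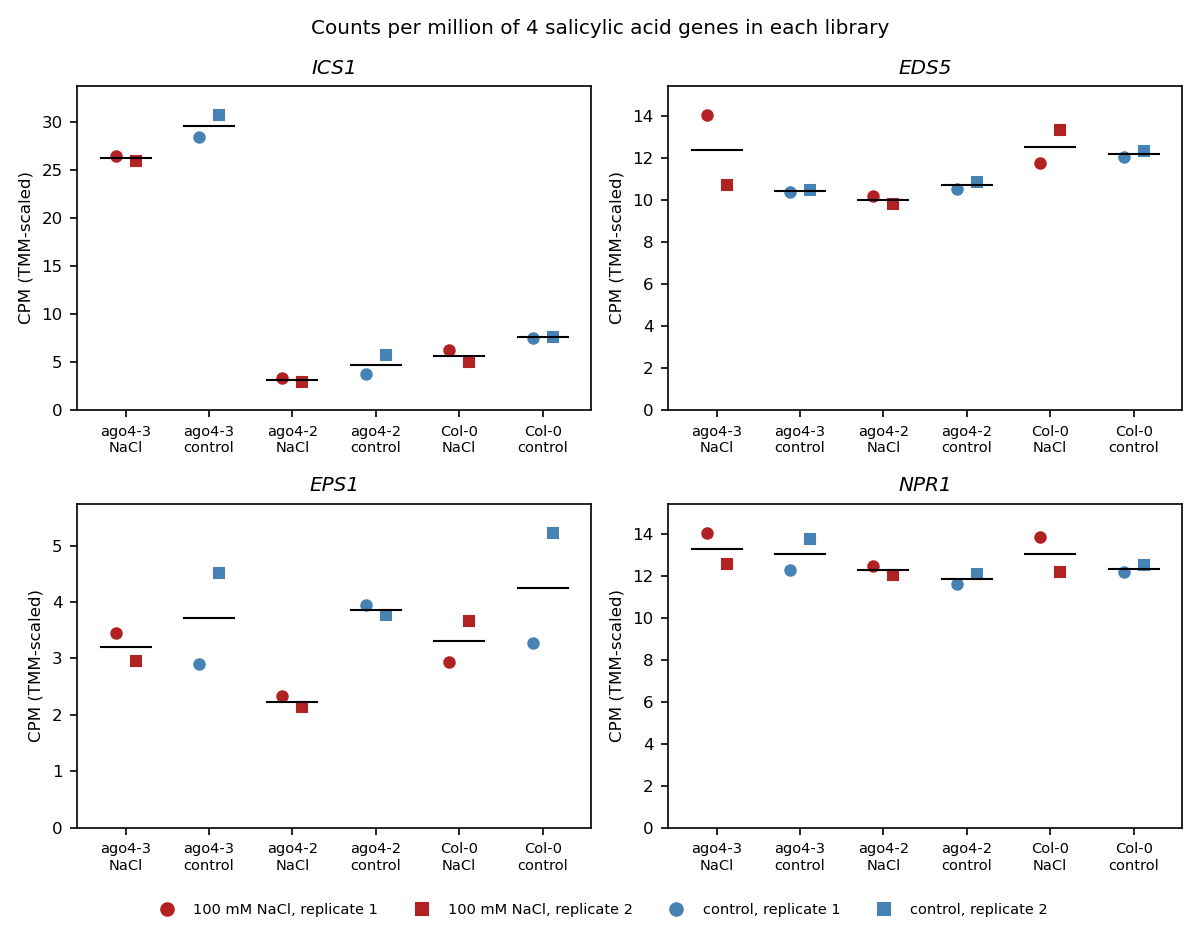
CPM (y axis, linear, starting at 0, each panel on its own scale) of ICS1, EDS5, EPS1 and NPR1 in each of the 12 libraries, by line and medium (x axis); points are libraries and bars are means of 2. The ICS1 panel shows the ago4-3 libraries at 26.0 to 30.7 CPM and all others at 2.87 to 7.58 CPM, while the highest NPR1 library was 1.21-fold above the lowest.

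Relative to Col-0, ICS1 rose in ago4-3 in both media. The log2 fold change was 2.22 ± 0.17 (SE) on NaCl, a 4.67-fold difference (edgeR quasi-likelihood, adjusted p = 1.90e-06). On control medium it was 1.97 ± 0.17, or 3.91-fold (edgeR adjusted p = 7.86e-06). A gene was called when its p was under 0.05 after Benjamini-Hochberg adjustment across the 17751 genes. Few genes passed that test between these lines: 0.541% were called higher and 0.648% lower in ago4-3 on NaCl, and 0.851% higher and 0.806% lower on control medium. Among the 96 genes called higher on NaCl, ICS1 had the 14th smallest p, and among the 151 called higher on control medium it also stood 14th. Both calls held under every alternative tried, with log2 fold changes of 2.06 to 2.41 on NaCl and 1.92 to 2.03 on control medium when each library was left out. The authors' deposited table for ago4-3 and Col-0 gives 2.22 on NaCl and 1.97 on control medium, with false discovery rates of 1.03e-27 and 1.65e-34.

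In ago4-2 the ICS1 level was below that of Col-0. The log2 fold change was −0.86 ± 0.19 on NaCl (edgeR adjusted p = 0.00372) and −0.64 ± 0.18 on control medium (edgeR adjusted p = 0.0442). Many more genes were called between these lines, 14.9% higher and 14.4% lower on NaCl and 5.22% higher and 3.22% lower on control medium. Leaving out Col-0 NaCl replicate 1 ended the NaCl call (adjusted p = 0.0502), and so did leaving out ago4-2 NaCl replicate 2 (0.0575). The control call ended in 9 of the 12 fits with a library left out, with the highest adjusted p, 0.290, without ago4-2 control replicate 1, where the log2 fold change was −0.40. Without Col-0 control replicate 1 the adjusted p was 0.180, and without Col-0 control replicate 2 it was 0.173, while in the other 6 of the 9, which left out a library of another group, it was 0.0529 to 0.0623.

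The difference between the 2 mutant lines was tested directly. ICS1 was higher in ago4-3 than in ago4-2 by a log2 fold change of 3.08 ± 0.19 on NaCl, or 8.48-fold (edgeR adjusted p = 3.98e-08). On control medium the log2 fold change was 2.61 ± 0.18, or 6.09-fold (edgeR adjusted p = 2.07e-07). Of all genes, 9.89% were called higher and 11% lower in ago4-3 on NaCl, and 3.79% higher and 5.21% lower on control medium. Both ICS1 calls held under every alternative tried. ICS1 had the 20th smallest p of 1756 genes called higher on NaCl and the 24th of 673 on control medium.

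Levels of tissue markers were compared in the same libraries. Summed over the 10 storage and late embryo genes, ago4-3 held 1888 to 2064 CPM on NaCl and 220 to 397 CPM in control, ago4-2 held 10047 to 11298 CPM on NaCl and 2057 to 2270 CPM in control, and Col-0 held 867 to 1222 CPM on NaCl and 264 to 297 CPM in control. In ago4-2 over Col-0, 10 of the 10 were called higher in each medium, and in ago4-3 over Col-0, 3 of 10 on NaCl (CRA1, CRC and EM6) and 0 of 10 in control. On NaCl both ago4-3 libraries lay above both Col-0 libraries, and in control the ago4-3 range enclosed that of Col-0. The calls for those 3 genes ended without Col-0 NaCl replicate 1 (adjusted p = 0.270, 0.468 and 0.340) or either ago4-3 NaCl library (0.0503 to 0.278), and that of CRC also when any 1 of the 4 libraries of Col-0 control and ago4-2 NaCl was left out (0.0680 to 0.0773). Of 5 green tissue genes, 4 were measured, and their sum in control was 2894 to 3200 CPM in ago4-3, 3138 to 3640 CPM in ago4-2 and 2253 to 2572 CPM in Col-0. All 3 endosperm genes were measured, with a sum in control of 45.9 to 75.2 CPM in ago4-3, 211 to 213 CPM in ago4-2 and 90.6 to 100.2 CPM in Col-0. On NaCl the green tissue sum was 4632 to 5364 CPM in ago4-3, 3823 to 4144 CPM in ago4-2 and 4547 to 5565 CPM in Col-0, and the endosperm sum was 44.2 to 49.1 CPM, 122 to 126 CPM and 70.3 to 88.9 CPM in the same lines. The sum of 3 stomatal lineage genes was 11.6 to 19.9 CPM over the 6 groups. Of 3 root hair genes, 1 had counts in all 12 libraries, at 0.248 to 3.07 CPM. COBL9, another of the 3, had counts in 10 libraries. Its deposited log2 fold change over Col-0 on NaCl was −1.12 in ago4-2 (false discovery rate 0.000144) and −0.72 in ago4-3 (0.123).

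Single marker genes within these sums differed between the lines, and those named here were chosen after their values were seen. PRP3, the root hair gene with counts in all 12 libraries, averaged 1.11 ± 0.06 CPM in ago4-3 control, 0.367 ± 0.15 CPM in ago4-2 control and 0.259 ± 0.01 CPM in Col-0 control (SD, n = 2 each). It was called higher in ago4-3 control than in Col-0 (log2 fold change 2.06 ± 0.41, edgeR adjusted p = 0.0141), beside the 1.97 of ICS1, and than in ago4-2 (1.48 ± 0.41, edgeR adjusted p = 0.0349). On NaCl its log2 fold change in ago4-3 over Col-0 was 0.19 ± 0.30 (edgeR adjusted p = 0.831). The call against Col-0 ended without either Col-0 control library (0.175 and 0.121) or ago4-3 control replicate 2 (0.0957). The call against ago4-2 ended without any 1 of the 4 libraries compared (0.0564 to 0.160) or Col-0 control replicate 2 (0.0504). RBCS1A made up most of the green tissue sum, at 3880 ± 210 CPM in ago4-2 on NaCl and 4757 ± 702 CPM in Col-0 on NaCl. The other 3 green tissue genes of that sum were called lower in ago4-2 on NaCl, where ICS1 was also lower. LHCB1.3 averaged 57.2 ± 9.47 CPM in ago4-2 and 150.9 ± 5.78 CPM in Col-0 there (log2 fold change −1.40 ± 0.11, edgeR adjusted p = 4.49e-07). PSAD1 averaged 22.0 ± 4.98 CPM in ago4-2 and 71.1 ± 1.64 CPM in Col-0 (−1.69 ± 0.13), and LHCA4 23.6 ± 2.63 CPM in ago4-2 and 77.1 ± 9.73 CPM in Col-0 (−1.70 ± 0.12). The same 3 were higher in ago4-3 than in ago4-2 on NaCl, by log2 fold changes of 1.42, 1.57 and 1.45, and these 6 calls held under every alternative tried. On control medium, where ICS1 was also lower in ago4-2 than in Col-0, 2 of the 4 green tissue genes were called higher and 0 lower. LHCB1.3 averaged 49.7 ± 2.82 CPM in ago4-2 control and 33.7 ± 0.97 CPM in Col-0 control. PSAD1 averaged 30.9 ± 3.66 CPM in ago4-2 control and 16.2 ± 0.01 CPM in Col-0 control. LHCB1.3 was also called higher in ago4-3 control than in Col-0 control (0.76 ± 0.11, edgeR adjusted p = 0.00182). MUTE, a stomatal lineage gene, averaged 6.69 ± 0.58 CPM in ago4-2 control, against 1.77 ± 0.10 CPM in ago4-3 control and 1.00 ± 0.11 CPM in Col-0 control (ago4-2 over Col-0 2.75 ± 0.25, edgeR adjusted p = 4.93e-06). SPCH and EPF2, also of that lineage, were not called in ago4-2 over Col-0 in control. On NaCl MUTE was called higher in ago4-2 than in Col-0, but SPCH and EPF2 were called lower. SPCH averaged 4.27 ± 0.47 CPM in ago4-2 and 6.74 ± 0.85 CPM in Col-0 on NaCl. EPF2 averaged 3.34 ± 0.37 CPM and 6.91 ± 1.97 CPM in the same lines. Of the endosperm sum in control, EPR1 made up 172.6 ± 0.31 CPM in ago4-2, 29.0 ± 19.2 CPM in ago4-3 and 60.4 ± 7.84 CPM in Col-0. In control it was called higher in ago4-2 than in Col-0, and MAN5 and MAN7 were called in neither mutant over Col-0. On NaCl EPR1 was called lower in ago4-3 than in Col-0 (8.00 ± 0.86 and 40.3 ± 10.7 CPM), and MAN5 and MAN7 were not. In ago4-2 over Col-0 on NaCl only MAN7 was called, as higher. The part of these tissues in the ICS1 differences was not tested.

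Salt was set against control medium within each line. For ICS1 the log2 fold change on NaCl was −0.65 ± 0.20 in ago4-2, where it was called lower (edgeR adjusted p = 0.0203). It was −0.17 ± 0.16 in ago4-3 (edgeR adjusted p = 0.473) and −0.43 ± 0.17 in Col-0 (edgeR adjusted p = 0.104), neither called. The authors' deposited false discovery rates were above 0.05 in all 3 lines. They were 0.0656 in ago4-2 (log2 fold change −0.64), 0.543 in ago4-3 (−0.17) and 0.0511 in Col-0 (−0.44). Salt changed a large share of all genes, 17.4% higher and 17.8% lower in ago4-2, 12.6% higher and 10.4% lower in ago4-3 and 10.7% higher and 7.42% lower in Col-0. The ago4-2 call ended without ago4-2 control replicate 2 (log2 fold change −0.28, adjusted p = 0.413), without ago4-2 NaCl replicate 2 (−0.54, adjusted p = 0.156) and when only the 2 ago4-2 groups were fitted (adjusted p = 0.126). The Col-0 value was called only without ago4-2 control replicate 2 (adjusted p = 0.0469). Whether ICS1 responds differently to salt in the mutants was tested as a difference of differences. That difference from Col-0 was 0.25 ± 0.23 for ago4-3 (edgeR adjusted p = 0.999) and −0.22 ± 0.26 for ago4-2 (edgeR adjusted p = 0.738), neither called. Over all genes, 0.0113% were called in each direction for ago4-3, and 1.84% higher and 2.59% lower for ago4-2.

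EDS5, the transporter next in the route, was at 14.0 and 10.7 CPM in ago4-3 on NaCl and 10.4 and 10.5 CPM in ago4-3 control. It was at 10.2 and 9.81 CPM in ago4-2 on NaCl and 10.5 and 10.9 CPM in ago4-2 control. In Col-0 it was at 11.8 and 13.4 CPM on NaCl and 12.1 and 12.3 CPM in control. The ago4-3 and Col-0 libraries on NaCl overlapped, and on control medium both ago4-3 libraries lay below both Col-0 libraries by less than 2 CPM. EDS5 was called in 0 of the 11 contrasts by edgeR and by DESeq2, with an unadjusted p under 0.05 in 1. Its log2 fold change in ago4-3 over Col-0 was −0.03 on NaCl (95% interval from the SE −0.31 to 0.26) and −0.22 on control medium (−0.51 to 0.06). In ago4-2 over Col-0 on NaCl it was −0.33 ± 0.15 (edgeR adjusted p = 0.103). EDS5H, its near copy, was also called in 0 of the 11 contrasts by either tool, with an unadjusted p under 0.05 in 0.

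EPS1, which acts at the end of the route, had the lowest mean of the 4 genes over the 12 libraries, 3.43 CPM and 2.05 CPM per kb, although in ago4-2 control ICS1 was lower per kb, at 2.17 ± 0.63 against 2.31 ± 0.07 CPM per kb for EPS1 (SD, n = 2). It was at 3.45 and 2.95 CPM in ago4-3 on NaCl and 2.91 and 4.51 CPM in ago4-3 control. It was at 2.34 and 2.14 CPM in ago4-2 on NaCl and 3.94 and 3.77 CPM in ago4-2 control. In Col-0 it was at 2.95 and 3.66 CPM on NaCl and 3.28 and 5.22 CPM in control. Both ago4-2 NaCl libraries were the lowest of the 12. The salt difference in ago4-2 had a log2 fold change of −0.78 ± 0.29 and missed the threshold (edgeR adjusted p = 0.0503). It was called with upper-quartile scaling (adjusted p = 0.0353), with organelle genes left out (adjusted p = 0.0428), without Col-0 control replicate 1 (0.0450) or 2 (0.0473) and without ago4-3 control replicate 1 (0.0370) or 2 (0.0380). The authors' deposited table gives a false discovery rate of 0.0212 for the same comparison, with a log2 fold change of −0.78, and 0.0304 for ago4-2 over Col-0 on NaCl, where edgeR here gave −0.56 ± 0.29 (adjusted p = 0.154). In ago4-3 over Col-0 the EPS1 log2 fold change was −0.05 ± 0.28 on NaCl and −0.19 ± 0.28 on control medium.

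NPR1, the receptor, hardly varied. It was at 14.0 and 12.6 CPM in ago4-3 on NaCl and 12.3 and 13.8 CPM in ago4-3 control. It was at 12.5 and 12.1 CPM in ago4-2 on NaCl and 11.6 and 12.1 CPM in ago4-2 control. In Col-0 it was at 13.9 and 12.2 CPM on NaCl and 12.2 and 12.5 CPM in control. Its log2 fold changes lay between −0.09 and 0.13 in the 11 contrasts. It was called in 0 of them by edgeR or DESeq2, with an unadjusted p under 0.05 in 0. For ago4-3 over Col-0 the 95% interval from the SE was −0.23 to 0.28 on NaCl and −0.18 to 0.33 on control medium.

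**Figure D2:**
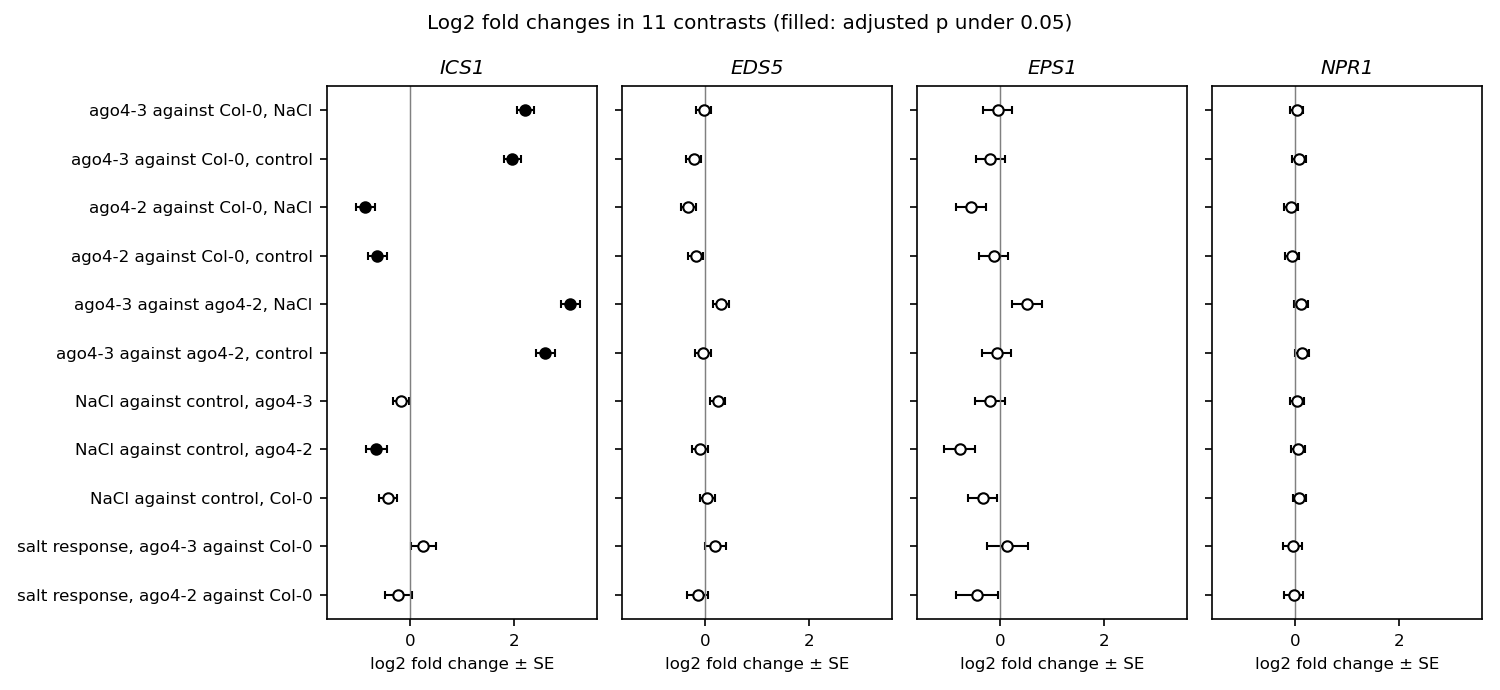
Log2 fold changes ± SE (x axis) of the 4 genes in 11 contrasts (rows), the last 2 rows being differences of salt responses; filled points passed an adjusted p of 0.05. Only ICS1 has filled points, 7 in all, with 4 of them for ago4-3 at 1.97 to 3.08, and the points of NPR1 stay within −0.09 to 0.13.

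Across the 12 libraries the highest ICS1 level was 10.7-fold above the lowest, against 2.44-fold for EPS1, 1.43-fold for EDS5 and 1.21-fold for NPR1. The coefficient of variation of ICS1 was 88.3%, larger than that of 98.5% of the 17751 genes. For EPS1, EDS5 and NPR1 it was 25.5%, 11.7% and 6.33%, and 1.35% of genes varied less than NPR1. Per kilobase of exon, ICS1 in ago4-3 control reached 13.6 ± 0.72 CPM per kb (SD, n = 2), above EDS5 at 4.62 ± 0.03 and NPR1 at 4.99 ± 0.41 in the same libraries. In Col-0 control the order differed, with ICS1 at 3.46 ± 0.02 CPM per kb, below EDS5 at 5.39 ± 0.09 and NPR1 at 4.73 ± 0.10. EPS1 was at 2.22 ± 0.68 CPM per kb in ago4-3 control and at 2.54 ± 0.82 CPM per kb in Col-0 control.

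Over the 12 libraries, the Pearson correlation of log2(CPM + 1) was 0.15 between ICS1 and EDS5, 0.25 between ICS1 and EPS1 and 0.55 between ICS1 and NPR1. These values describe libraries that share 6 groups and carry no test. Of 17643 genes with a mean of at least 1 CPM, the 3 most like ICS1 in pattern were AT5G26270 (r = 0.985), RSU1 (AT3G48130, r = 0.957) and SULTR3;2 (AT4G02700, r = 0.954), the last a sulfate transporter family gene. AT5G26270 averaged 26.7 ± 0.86 CPM in ago4-3 control, 3.62 ± 0.55 CPM in ago4-2 control and 6.76 ± 1.15 CPM in Col-0 control (SD, n = 2 each). SULTR3;2 averaged 21.5 ± 0.21 CPM in ago4-3 control, 4.32 ± 0.27 CPM in ago4-2 control and 6.75 ± 1.16 CPM in Col-0 control. Like ICS1, both were highest in ago4-3 and lowest in ago4-2. The 3 genes most like EDS5 were AT5G13470 (r = 0.920), CYTC6A (0.904) and AT1G30020 (0.859), and those most like NPR1 were AT1G49870 (0.925), EMB140 (0.862) and GLR1.4 (0.835). EDS5 and NPR1 were each called in 0 of the 11 contrasts, so these r values may follow scatter between libraries of a group. AT1G49870 was low, with group means of 0.496 CPM in ago4-2 control to 1.62 CPM in Col-0 on NaCl.

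The genes beside ICS1 were examined for the same comparison. Of the 5 measured genes on each side, edgeR called 0 of 10 in ago4-3 over Col-0 on NaCl, with 2 at an unadjusted p under 0.05 and 1 called by DESeq2. The share of all genes under the unadjusted cutoff is not given here. Of all genes, 0.541% were called higher and 0.648% lower on NaCl, and 0.851% and 0.806% on control medium. The log2 fold changes of the 10 neighbours on NaCl were −0.84 to 0.33. On control medium 1 of 10 was called, GASA6, a gibberellin-regulated gene with its midpoint at −16.7 kb from the ICS1 start, which was lower in ago4-3 with a log2 fold change of −1.54 ± 0.20 (edgeR adjusted p = 0.000709) and stayed called under every alternative tried. The other 9 lay at or below 0.31.

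**Figure D3:**
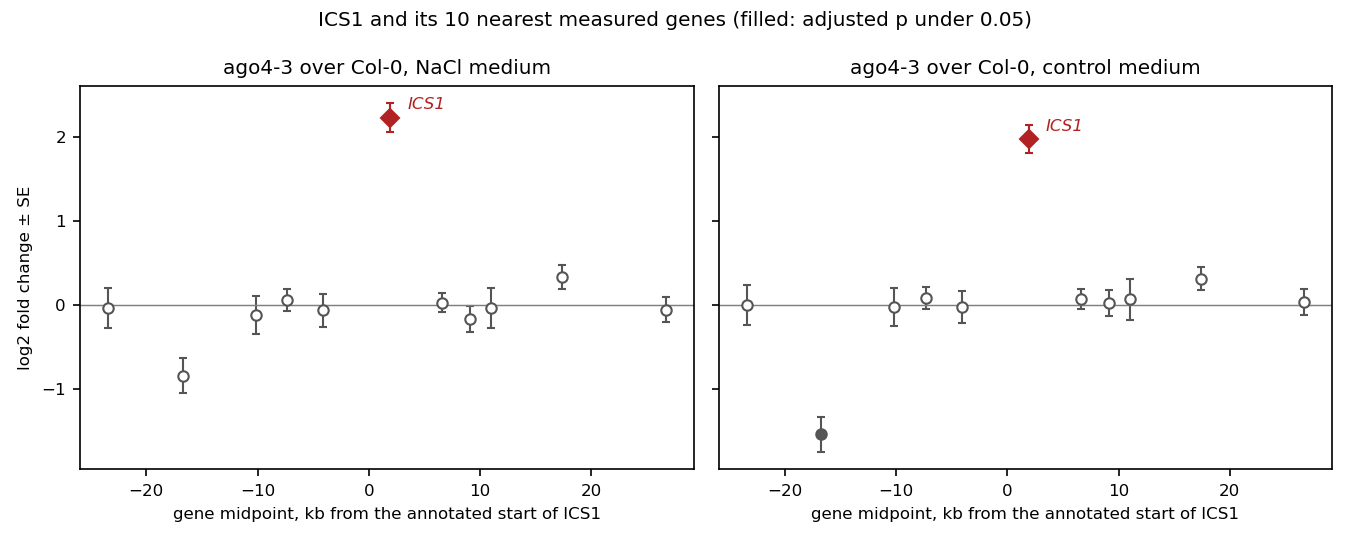
Log2 fold change ± SE in ago4-3 over Col-0 (y axis) of ICS1 (red diamond) and the 10 nearest measured genes, against the distance of each gene's midpoint from the ICS1 start in kb (x axis), on NaCl (left) and control medium (right); filled circles passed an adjusted p of 0.05. ICS1 stands at 2.22 and 1.97, and no neighbour is above 0.33.

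Other genes of salicylic acid metabolism and signalling were taken from a list of 51, of which 31 were measured. In ago4-3 over Col-0, edgeR called 0 of 31 on NaCl, where 0.541% of all genes were called higher and 0.648% lower. On control medium 2 were called higher and 0 lower, beside 0.851% and 0.806% of all genes. The median log2 fold change was −0.11 on NaCl and −0.08 on control medium, against −0.01 over all genes in each medium. On NaCl 6 of the 31 had an unadjusted p under 0.05, and DESeq2 also called 0. On control medium 9 had an unadjusted p under 0.05, and DESeq2 called 3. The share of all genes under that unadjusted cutoff is not given here. In the authors' deposited values NIMIN2 passed a false discovery rate of 0.05 on NaCl (−0.88, 0.0266) and on control medium (−1.58, 1.35e-06). Besides UGT74F1 and PAL2, so did PAL3 (0.85, 7.02e-06), PAL1 (0.82, 0.000519) and WRKY53 (0.77, 0.00577) on control medium. CBP60A, the 1 measured gene of 5 regulators of synthesis, was among those not called. CBP60G, SARD1, WRKY28 and WRKY46 had counts in 0 libraries, so nothing can be said of them. The 2 genes called by edgeR on control medium were UGT74F1 and PAL2. UGT74F1, which forms salicylic acid glucoside, was at 16.1 ± 1.24 CPM in ago4-3 control and 9.88 ± 0.63 CPM in Col-0 control, with a log2 fold change of 0.70 ± 0.13 (edgeR adjusted p = 0.00873). PAL2, a phenylalanine ammonia-lyase of the alternative route to salicylic acid, was at 20.1 ± 1.04 CPM in ago4-3 control and 13.0 ± 1.88 CPM in Col-0 control (0.63 ± 0.14, edgeR adjusted p = 0.0292). The UGT74F1 call ended without either Col-0 control library (adjusted p = 0.0688 without replicate 1 and 0.143 without replicate 2) and without ago4-3 control replicate 2 (0.104). The PAL2 call ended without Col-0 control replicate 1 (adjusted p = 0.376) or 2 (0.0611), ago4-3 control replicate 1 (0.0560) or 2 (0.227) and ago4-2 NaCl replicate 1 (0.0535) or 2 (0.0529).

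In ago4-2 over Col-0, 3 of the 31 genes were called higher and 7 lower on NaCl, and 3 higher and 1 lower on control medium. Of all genes, 14.9% were higher and 14.4% lower on NaCl, and 5.22% and 3.22% on control medium. On NaCl the median was −0.23, against −0.02 over all genes. PAL4, another phenylalanine ammonia-lyase, was at 7.94 ± 1.75 CPM in ago4-2 on NaCl and 1.90 ± 0.08 CPM in Col-0 on NaCl, a log2 fold change of 2.05 ± 0.26 (edgeR adjusted p = 4.97e-05). ADR1-L2, a helper immune receptor that works with EDS1 and PAD4, was also higher (0.79 ± 0.12, edgeR adjusted p = 0.000248), as was UGT74F2, which forms the glucoside and the glucose ester (0.63 ± 0.10, edgeR adjusted p = 0.000322). NIMIN3, an NPR1-interacting protein, was lower (−0.98 ± 0.20, edgeR adjusted p = 0.00230), and so was TGA3, a TGA factor (−0.67 ± 0.14, edgeR adjusted p = 0.00259). These 5 calls held under every alternative tried. They are among the 16 that did so, of 48 calls made for the 31 genes over all contrasts. On control medium UGT74F1 was at 15.4 ± 0.63 CPM in ago4-2, against the Col-0 level above, a log2 fold change of 0.64 ± 0.13 (edgeR adjusted p = 0.00541). It was the one gene of the list that edgeR called here in the same direction in both mutants in 1 medium, and the 2 comparisons share the Col-0 libraries. Its ago4-2 call ended without Col-0 control replicate 2 (adjusted p = 0.0759). The authors' deposited values put a further gene of the list, NIMIN2, below Col-0 in both mutants on NaCl. Its log2 fold change there was −0.94 in ago4-2 (false discovery rate 0.00036) and −0.88 in ago4-3 (0.0266), and edgeR called it here in neither. Between ago4-3 and ago4-2, 5 of the 31 were called higher and 3 lower on NaCl, beside 9.89% and 11% of all genes. On control medium 2 were called higher and 1 lower, beside 3.79% and 5.21%. PAL4 and ADR1-L2 were lower in ago4-3 on NaCl under every alternative, at −1.55 ± 0.26 (edgeR adjusted p = 0.000759) and −0.58 ± 0.12 (edgeR adjusted p = 0.00381).

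**Figure D4:**
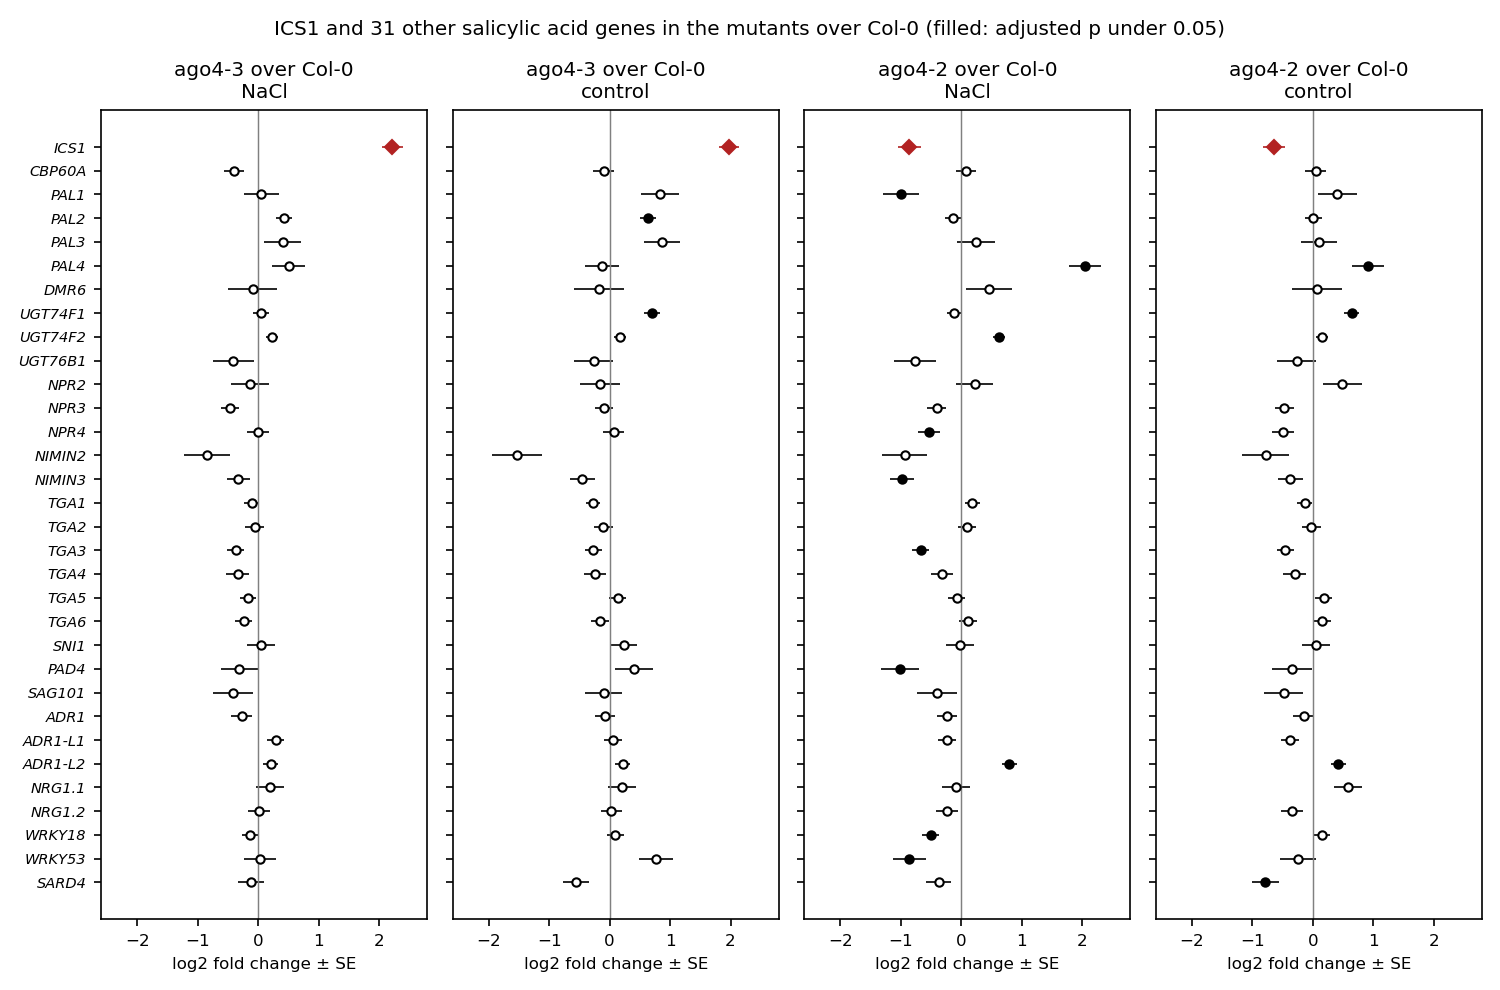
Log2 fold changes ± SE (x axis) of ICS1 (red diamonds) and 31 other measured salicylic acid genes (rows), in ago4-3 over Col-0 and ago4-2 over Col-0 on each medium (panels); filled points passed an adjusted p of 0.05. ICS1 stands to the right in the ago4-3 panels, where 0 and 2 of the others are filled, and PAL4 at 2.05 stands to the right in the ago4-2 NaCl panel.

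Salt called 3 of the 31 genes higher and 5 lower in ago4-2, where 17.4% and 17.8% of all genes were called. It called 2 higher and 5 lower in ago4-3, beside 12.6% and 10.4% of all genes, and 4 higher and 1 lower in Col-0, beside 10.7% and 7.42%. UGT74F2 rose in all 3 lines, with 123.8 ± 11.1 CPM on NaCl and 62.8 ± 5.78 CPM on control medium in ago4-2, 94.2 ± 6.17 CPM and 63.3 ± 4.39 CPM in ago4-3, and 80.1 ± 2.16 CPM and 56.4 ± 2.67 CPM in Col-0. Its log2 fold changes were 0.98 ± 0.10, 0.57 ± 0.10 and 0.51 ± 0.10 in the same lines (edgeR adjusted p = 4.62e-06, 0.000868 and 0.00272). WRKY18, a WRKY factor of the defence response, fell in all 3, with log2 fold changes of −1.27 ± 0.14 in ago4-2, −0.82 ± 0.14 in ago4-3 and −0.60 ± 0.14 in Col-0 (edgeR adjusted p = 1.12e-05, 0.000709 and 0.00683). The Col-0 call for WRKY18 ended without Col-0 control replicate 1 (adjusted p = 0.0946) or Col-0 NaCl replicate 2 (0.0679). UGT74F1 fell on NaCl in ago4-2 (−0.67 ± 0.13, edgeR adjusted p = 0.00106) and ago4-3 (−0.56 ± 0.13, edgeR adjusted p = 0.00541), and NPR3, a salicylic acid receptor that represses transcription, fell in ago4-3 (−0.76 ± 0.16, edgeR adjusted p = 0.00274). PAL1 rose in Col-0, with 9.06 ± 1.37 CPM on NaCl and 3.01 ± 0.04 CPM on control medium (1.59 ± 0.31, edgeR adjusted p = 0.00227). Of 10 jasmonate and ethylene defence genes, 3 had counts in all 12 libraries. On NaCl 1 of these was called lower in ago4-2 (JAZ1), 2 lower in ago4-3 (JAZ1 and AOS) and 1 lower in Col-0 (AOS), with the same shares of all genes as background. PR4, of the same list, had counts in 10 libraries. Its deposited log2 fold change on NaCl was 1.55 in ago4-3 (false discovery rate 2.59e-05) and 0.12 in ago4-2 (0.856). The AOS calls ended without any 1 of the 4 Col-0 libraries in Col-0 (adjusted p up to 0.185) and in 9 of the 12 fits with a library left out in ago4-3 (up to 0.217).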

How the data were processed

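Per the file headers, the authors deposited 9 tables of paired groups with raw counts per gene, pseudo-counts and, for each comparison, log2 fold changes, p-values and false discovery rates. The 36 pseudo-count columns were not used. The authors' log2 fold changes and p-values are quoted only where their table is named. The submitters' processing notes name build TAIR10 and the tools edgeR, DESeq, Picard and SAMtools, without versions. Aligner and strandedness were not given in the sources used here. Without strand, antisense reads cannot be separated.

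Each library stood in 3 tables with 0 disagreeing values. The fit used 17751 of 18542 genes, those with counts in all 12 libraries, after leaving out 147 transcript-suffix identifiers, of which 146 repeated their gene. Depth was 18168653 to 47517007 counts. Of counts of 1 to 20, 72.4% to 87.7% were even, and whether both mates of a pair were counted was not stated, so no counting intervals are printed.

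The main test was the quasi-likelihood test of edgeR 4.0.16 (R 4.3.3) after TMM scaling, on all 12 libraries with the 6 groups as terms and 11 contrasts. Calls were made at a two-sided p under 0.05 after Benjamini-Hochberg adjustment within a contrast. CPM uses the TMM library size. DESeq2 1.42.0, other scalings and filters, fits of the compared groups alone, a replicate block and leaving out each library were the alternatives. The procedure was tested on simulated data. Positions and upstream sequences are from TAIR10.1, and the files hold no coordinates. Named were all measured members, near copies, of each list the genes called in both mutants in 1 medium and up to 3 called genes per contrast by adjusted p, and the 3 genes most like each member with a mean of at least 5 CPM. Members and lists were chosen with earlier results of these data known.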

Additional observations from a re-analysis of the deposited data

Results flagged for a closer look

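ICS1 differed between the mutant lines when each was set against Col-0 in the same medium. The test of that difference, ago4-3 over ago4-2, gave a log2 fold change of 3.08 on NaCl (edgeR adjusted p = 3.98e-08) and 2.61 on control medium (edgeR adjusted p = 2.07e-07), with both ago4-3 libraries above both ago4-2 libraries in each medium. UGT74F1 differed in its salt response between ago4-2 and Col-0, by −0.75 on the log2 scale (edgeR adjusted p = 0.0287). It averaged 9.73 ± 0.32 CPM on NaCl and 15.4 ± 0.63 CPM on control medium in ago4-2, against 10.5 ± 0.09 CPM on NaCl and 9.88 ± 0.63 CPM on control medium in Col-0 (SD, n = 2 each). That call ended without any 1 of the 4 Col-0 libraries (adjusted p = 0.0642 to 0.139) and in ago4-2 without replicate 2 of control (0.0755) or replicate 1 (0.0894) or 2 (0.124) of NaCl.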

How the results depend on the processing

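Of 825 recomputed member values, 801 kept their side of the threshold, 17 lost the call, 7 gained it, and 0 called values changed sign. EPS1 could not be tested with at least 5 CPM required. The number of the 4 genes called stayed at 1 under all alternatives for ago4-3 over Col-0 and over ago4-2 in both media. For ago4-2 over Col-0 it was 1 on control medium, but 0 when only the compared groups were fitted, with the replicate block and with counts divided by 2, and 0 to 1 with a library left out. On NaCl it was 1, and 0 to 1 with a library left out. For salt in ago4-2 it was 1, but 2 with upper-quartile scaling and with organelle genes left out, 0 when only its groups were fitted, and 0 to 2 with a library left out. For salt in Col-0 it was 0, and 0 to 1 with a library left out. Same-numbered libraries deviated together with r of −0.516 to 0.317 over 15 pairs of groups, above 0.1 in 3 and below −0.1 in 6. Replicate numbers may not match between groups, so these values cannot show whether libraries shared a batch. With the replicate block the ICS1 value for ago4-2 over Col-0 in control was −0.64 (adjusted p = 0.0624).

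Over all genes, the 294 calls of ago4-3 over Col-0 in control became 92 to 585 with a library left out and 234 to 582 under the other alternatives, and the 211 on NaCl became 87 to 323 and 142 to 348. The 1498 of ago4-2 over Col-0 in control became 533 to 2420 and 830 to 1756, and the 5209 on NaCl 2804 to 6064 and 4805 to 5641. Between the mutants, 1597 in control became 879 to 1661 and 665 to 1804, and 3709 on NaCl 1867 to 4495 and 3354 to 5013. For salt, 6238 in ago4-2 became 3916 to 6415, 4089 in ago4-3 2128 to 4770 and 3222 in Col-0 1390 to 3843 with a library left out. The 786 genes with a different salt response in ago4-2 became 254 to 1129 and 596 to 1106, and the 4 in ago4-3 became 1 to 30 and 3 to 54. Of the 31 other salicylic acid genes, edgeR called 1 and DESeq2 4 for the salt response of ago4-2 against Col-0. SESA4, a storage gene, had a log2 fold change on NaCl of −1.55 in ago4-3, and of −2.24 to 0.26 with a library left out, changing sign without ago4-3 control replicate 1. The call of CRC in ago4-3 over Col-0 on NaCl (adjusted p = 0.0495) was also lost with DESeq2 (0.0805), upper-quartile scaling (0.0638), at least 5 CPM required (0.0681) and the replicate block (0.0715). The cause was not tested for either gene. With 2 libraries in a group, a 2-against-2 permutation test could not go below p = 0.333.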
